A study of Homo sapiens with 3 samples.

Results

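Target genes of the tumour suppressor p53 were examined in irinotecan-resistant colorectal cancer cells. The list names 39 p53-induced genes by symbol, and 36 of them had a probe set that names no other gene, out of 18417 genes measured in this way. BTG2 and FDXR were not analysed here, since the annotation table used lists no probe set for them. TNFRSF10C shares its probe set with LOC254896, with levels of 5.40 in parental LoVo, 5.45 in LoVo-R8 without irinotecan and 5.40 in LoVo-R8 with it, and was left out of all counts. Each of the 36 genes had 1 such probe set.

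LoVo is an established human colorectal cancer cell line. LoVo-R8 was derived from it by stepwise exposure to irinotecan, from 0.1 μM to 8 μM. Total RNA (300 ng) of parental LoVo cells, of LoVo-R8 cells in irinotecan-free culture and of LoVo-R8 cells in 8 μM irinotecan was hybridised to Affymetrix Human Gene 1.0 ST arrays, 1 array each. No alteration other than selection by the drug distinguishes LoVo-R8 in the labels, and whether it is 1 clone is not stated. The labels of all 3 arrays carry one treatment text, in which irinotecan was given 24 h before RNA purification. Whether the parental culture received the drug is therefore not settled, and values relative to parental LoVo have to be read with that limit. The legend of the study's clustering says that the drug-free LoVo-R8 data were used, whereas its published fold changes of cell cycle arrest genes are those of the array labelled as grown with irinotecan. The drug labels of the LoVo-R8 arrays may therefore be exchanged, which could not be settled. Both arrays are called by their labels below, and each direction with against without irinotecan would turn if the labels were exchanged. The values are log2 levels made by the authors with the robust multichip average (RMA), and a difference of 1 is 2-fold. Replicates are lacking, so values are given with no error and no test, and their precision is limited by having 1 array per culture.

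Irinotecan is converted to SN-38, which traps topoisomerase I on DNA and causes breaks during replication. Damage kinases then stabilise p53, a transcription factor that induces genes of cell cycle arrest, DNA repair and cell death. It also induces its own inhibitors, above all MDM2, the ubiquitin ligase that marks p53 for degradation. Repression by p53 runs mostly through the CDK inhibitor p21, the product of CDKN1A, and the DREAM complex.

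Colon epithelial markers were mostly present. Of 12 colon epithelial markers, 10 were at or above the array median on all 3 arrays, among them EPCAM, KRT8, KRT18 and KRT19. CDH1, the E-cadherin gene, was lower in LoVo-R8 than in parental LoVo, with log2 differences of -3.06 without and -2.26 with irinotecan. LGALS4, a galectin gene, was lower too, at -2.27 and -2.01. Some other markers were higher, with differences of 1.07 and 1.13 for CDH17, 0.60 and 1.39 for GPA33, and 0.35 and 0.91 for CDX2. Of the 12 markers, 8 were below parental LoVo without irinotecan and 7 with it, beside 38.5% and 44.7% of all genes. Their medians were -0.34 and -0.23. Markers of other cell types were low. Of 6 fibroblast markers, 5 leukocyte markers and 4 endothelial markers, 1, 1 and 0 reached the array median on all 3 arrays, and their levels ranged from 3.73 to 7.99. PTPRC, the pan-leukocyte gene, was at 4.12 on each array.

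p53 binds pairs of a half-site of 10 letters: 3 purines, C, 2 positions of A or T, G, and 3 pyrimidines. The half-site reads the same on both strands, so 1 search covers them. It was searched in RefSeq promoter windows (GRCh38.p14, 250 bases before to 50 after each annotated start), which held 30 of the 39 listed genes. An exact half-site was found for 6 of these 30 genes (20%) and for 2202 of 27305 genes overall (8.06%). A full site, meaning 2 abutting half-sites with at most 2 mismatches in 20 letters and C and G kept at the core of each, was found for 4 of 30 genes (13.3%) and for 98 genes overall (0.359%). The listed genes are known p53 targets, in part because such sites were found in them, so this share is a description of the list. The stretches below are shown because they hold the full sites found in measured genes, beside the half-site of PLK2, with half-sites and full sites in capitals. They run 5′ to 3′ along the gene's strand and stop at the annotated start, except for DDB2, whose site lies across it. The start of PLK2 is the outermost one of its gene, and the starts of DDB2, FAS, MDM2 and AEN lie inside the annotated genes, so these stretches also belong to the gene's own span.
DDB2 (chr11:47214724-47215003, plus strand): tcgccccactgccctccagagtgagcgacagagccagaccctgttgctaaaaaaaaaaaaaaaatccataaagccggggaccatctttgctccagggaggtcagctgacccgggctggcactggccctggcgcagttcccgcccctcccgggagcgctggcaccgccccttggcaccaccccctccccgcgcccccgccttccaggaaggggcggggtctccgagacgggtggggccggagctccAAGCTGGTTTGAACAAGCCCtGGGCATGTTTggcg
PLK2 (chr5:58460087-58460336, minus strand): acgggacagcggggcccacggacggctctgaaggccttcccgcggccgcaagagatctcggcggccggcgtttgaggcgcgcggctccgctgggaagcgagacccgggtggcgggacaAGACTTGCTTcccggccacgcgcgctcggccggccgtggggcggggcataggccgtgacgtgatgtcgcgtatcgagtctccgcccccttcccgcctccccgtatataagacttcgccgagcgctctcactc
FAS (chr10:88991181-88991430, plus strand): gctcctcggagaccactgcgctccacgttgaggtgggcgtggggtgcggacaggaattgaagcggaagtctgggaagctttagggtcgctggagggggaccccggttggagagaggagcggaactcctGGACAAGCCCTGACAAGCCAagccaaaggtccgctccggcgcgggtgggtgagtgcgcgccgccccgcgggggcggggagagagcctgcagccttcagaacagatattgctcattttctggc
MDM2 (chr12:68808767-68809016, plus strand): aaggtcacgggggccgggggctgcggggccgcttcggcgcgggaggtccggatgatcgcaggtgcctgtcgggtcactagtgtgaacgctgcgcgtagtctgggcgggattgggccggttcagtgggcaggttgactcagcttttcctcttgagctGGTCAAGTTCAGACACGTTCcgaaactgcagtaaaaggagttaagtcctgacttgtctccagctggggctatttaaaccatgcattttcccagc
AEN (chr15:88621090-88621339, plus strand): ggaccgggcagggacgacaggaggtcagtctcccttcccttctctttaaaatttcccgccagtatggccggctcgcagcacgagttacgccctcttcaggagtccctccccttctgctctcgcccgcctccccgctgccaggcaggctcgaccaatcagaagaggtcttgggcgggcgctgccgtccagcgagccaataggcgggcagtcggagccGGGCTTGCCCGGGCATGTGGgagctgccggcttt

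**Figure D1:**
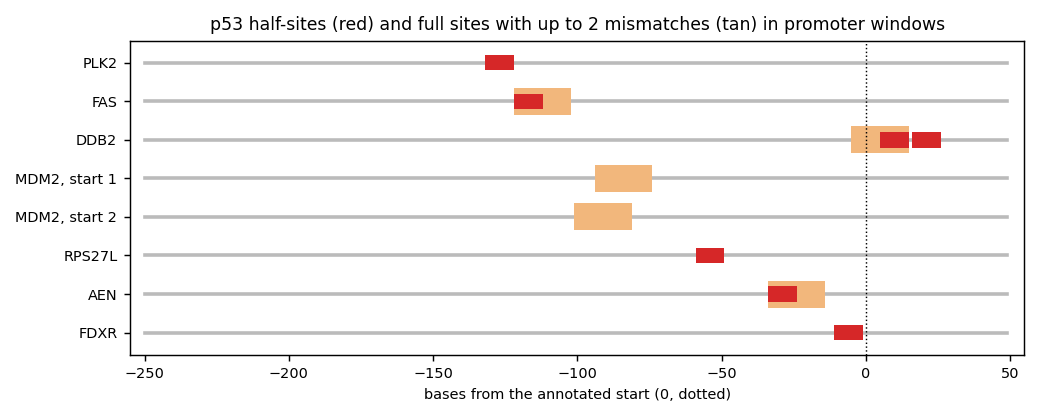
Positions of p53 half-sites (red) and of full sites with up to 2 mismatches (tan) in the promoter windows of the listed genes that hold one, in bases from the annotated start (0). DDB2 has its sites across the start, from -5 to 25, and PLK2 has its half-site from -132 to -123.

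DDB2 had 2 half-sites, from 5 to 14 and from 16 to 25, and a full site with 1 mismatch from -5 to 14 (positions in bases, with the annotated start at 0). The other sites lay before the start. FAS had its full site from -122 to -103 and AEN from -34 to -15, each with 2 mismatches. MDM2 had no exact half-site but a full site with 2 mismatches from -94 to -75 of a start inside the gene, and the same letters fall from -101 to -82 of a neighbouring start. PLK2 had a half-site from -132 to -123, RPS27L from -59 to -50 and FDXR, which was not measured, from -11 to -2. The measured genes with a site had no common direction, as the values below show. No match in the window says nothing about p53 at a gene: the known elements of CDKN1A, for instance, lie farther upstream.

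Relative to parental LoVo, 5 of the 36 p53 target genes were at least 2-fold higher in LoVo-R8 without irinotecan and 2 were at least 2-fold lower. Over all genes, 1.64% were that much higher and 2.78% that much lower. The higher genes were CDKN1A, DDB2, RRM2B, TP53INP1 and GADD45A, and the lower ones were TNFRSF10D and TIGAR. At 1.5-fold, 9 were higher and 2 lower, where 4.37% and 8.84% of all genes were. The median difference of the 36 genes was 0.17, against 0.00 over all genes. In LoVo-R8 with irinotecan, 1 gene was at least 2-fold higher (DDB2) and 1 at least 2-fold lower (TIGAR), beside 2.25% and 2.3% of all genes. At 1.5-fold, 5 were higher and 6 lower, beside 5.79% and 7.19% of all genes, and the median difference was 0.02. Both comparisons use the same parental array, so they are not independent of each other.

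**Figure D2:**
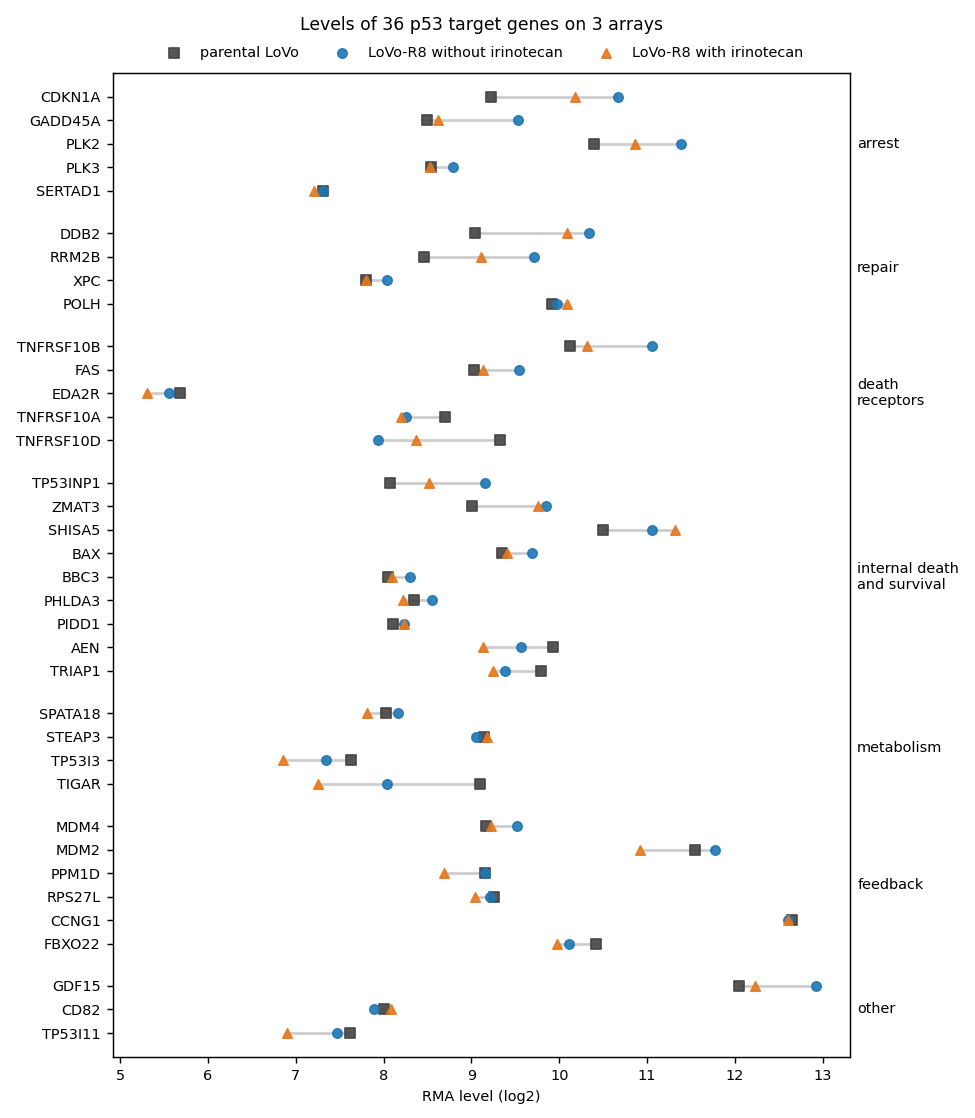
RMA log2 levels of the 36 measured p53 target genes in parental LoVo (squares), LoVo-R8 without irinotecan (circles) and LoVo-R8 with irinotecan (triangles), 1 array each, grouped by role. Each row compares 1 gene between arrays and levels of different genes are not comparable; CDKN1A lies at 9.22, 10.67 and 10.18 and TIGAR at 9.10, 8.04 and 7.26.

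The cell cycle arrest genes were at or above parental levels in LoVo-R8 without irinotecan. CDKN1A, which encodes the CDK inhibitor p21, had log2 levels of 9.22 in parental LoVo, 10.67 in LoVo-R8 without irinotecan and 10.18 in LoVo-R8 with it. Both LoVo-R8 arrays were thus above the parental one, 2.72-fold without and 1.94-fold with the drug, and the latter lies just inside 2-fold. GADD45A, a damage-induced gene whose protein acts in growth arrest and repair, had levels of 8.50, 9.53 and 8.61 in the same order. It was 2.04-fold higher without irinotecan, just past the 2-fold limit, and within 0.12 of parental LoVo with it.

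PLK2, a Polo-like kinase gene with the half-site shown above, had levels of 10.40, 11.39 and 10.86. Its difference without irinotecan was 0.99, just short of 2-fold, and it passed 2-fold with loess correction (1.04) or repeated quantile normalization (1.03). PLK3, another stress-responsive Polo-like kinase gene, had differences of 0.26 and -0.01. SERTAD1, whose protein binds CDK4, was at 7.31 in parental LoVo and in LoVo-R8 without irinotecan, and at 7.21 with it. Of the 5 arrest genes measured, 4 were above parental LoVo without irinotecan and 3 with it, beside 48.9% and 40.9% of all genes. The medians of the arrest genes were 0.99 and 0.12.

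Of the repair genes, DDB2 and RRM2B were at least 1.5-fold above parental LoVo on both LoVo-R8 arrays. DDB2, the damage-binding subunit that opens nucleotide excision repair of ultraviolet lesions, had levels of 9.04, 10.34 and 10.08. It was the only member at least 2-fold higher on both arrays, 2.46-fold without and 2.05-fold with irinotecan, and its promoter holds the sites closest to the full consensus among the stretches shown. RRM2B, the p53-induced small subunit of ribonucleotide reductase that supplies nucleotides outside S phase, had levels of 8.46, 9.71 and 9.11.

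RRM2B was therefore 2.39-fold higher without irinotecan and 1.57-fold higher with it. XPC, which recognises distorted DNA in nucleotide excision repair, had levels of 7.80, 8.04 and 7.80, the first and last being equal. POLH, the polymerase that copies across ultraviolet lesions, had levels of 9.91, 9.97 and 10.08. All 4 repair genes were above parental LoVo without irinotecan, beside 48.9% of all genes. For XPC and POLH the differences were at most 0.24 on either array.

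The death receptor genes did not share a direction. TNFRSF10B, which encodes the TRAIL receptor DR5, had levels of 10.12, 11.05 and 10.32, so its difference from parental LoVo was 0.93 without irinotecan and 0.19 with it. FAS, the receptor of Fas ligand, had 9.03, 9.55 and 9.13, with differences of 0.52 and 0.11. These genes for signalling receptors were above the parental level, mainly on the array without the drug.

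TNFRSF10A, which encodes the other signalling TRAIL receptor, DR4, had levels of 8.70, 8.26 and 8.20. TNFRSF10D, which encodes a decoy receptor that binds TRAIL without a complete death domain, had levels of 9.32, 7.93 and 8.36. TNFRSF10D had the most negative difference from parental LoVo of the 36 genes in LoVo-R8 without irinotecan. It was 2.62-fold below parental LoVo there, and 1.95-fold below it with the drug. TNFRSF10A, TNFRSF10B and TNFRSF10D all lie on chromosome 8. TNFRSF10D and TNFRSF10A were thus below their parental levels on both LoVo-R8 arrays, and TNFRSF10B was above its own. These genes are paralogs, and whether their probe sets share sequence was not tested. EDA2R, the ectodysplasin A2 receptor gene, had levels of 5.69, 5.55 and 5.30 and was the only member below the first quartile of an array (5.39 in LoVo-R8 with irinotecan), where background limits a difference.

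**Figure D3:**
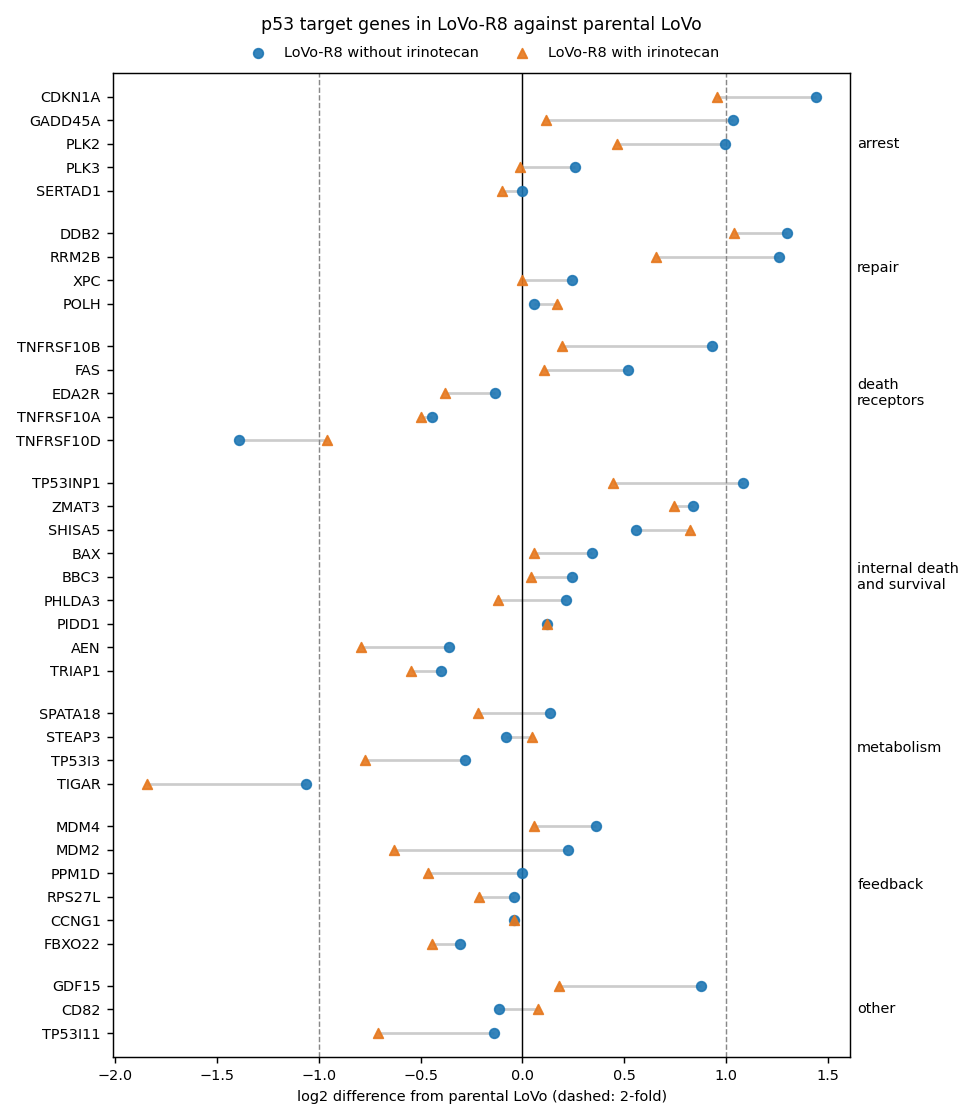
LoVo-R8 minus parental LoVo (log2 difference) for the measured p53 target genes, without irinotecan (circles) and with it (triangles), grouped by role, with dashed lines at 2-fold. CDKN1A, DDB2, RRM2B, TP53INP1 and GADD45A lie past 2-fold without irinotecan, TNFRSF10D and TIGAR lie past it on the other side, and DDB2 and TIGAR stay past it with irinotecan.

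Genes that act on death and survival inside the cell were mostly near parental levels. TP53INP1, a stress-induced gene of p53 phosphorylation and autophagy, had levels of 8.07, 9.15 and 8.51, which is 2.12-fold and 1.36-fold of parental LoVo. ZMAT3, an RNA-binding zinc finger gene, had 9.01, 9.84 and 9.75, and its differences of 0.84 and 0.75 were close to each other. SHISA5, a gene of an endoplasmic reticulum protein that promotes apoptosis, had 10.50, 11.05 and 11.32. It was the member with the most positive difference after DDB2 and CDKN1A in LoVo-R8 with irinotecan, 1.77-fold of parental LoVo.

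BAX and BBC3, the members of the BCL2 family in the list, differed little from parental LoVo. BAX, the pore-forming BCL2 family gene, had differences of 0.34 without and 0.05 with irinotecan. BBC3, which encodes the BH3-only protein PUMA, had 0.24 and 0.04. PIDD1, the scaffold gene of the PIDDosome, had 0.12 on both arrays, and PHLDA3, whose protein restrains AKT, had 0.21 and -0.12. AEN, an apoptosis-enhancing nuclease gene whose promoter holds the full site shown above, was on the other side, with levels of 9.93, 9.57 and 9.13. TRIAP1, an apoptosis inhibitor gene of the mitochondrial intermembrane space, likewise had lower levels in LoVo-R8, at 9.79, 9.39 and 9.24. Of the 9 genes, 7 were above parental LoVo without irinotecan and 6 with it, beside 48.9% and 40.9% of all genes. The medians of the 9 genes were 0.24 and 0.05.

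Metabolic targets were the role with the lowest levels relative to parental LoVo. TIGAR, a fructose bisphosphatase that restrains glycolysis and favours NADPH production, had levels of 9.10, 8.04 and 7.26. It was 2.09-fold lower without irinotecan and 3.59-fold lower with it, and the latter difference ranked 104 from the lowest of 18417 genes. With repeated quantile normalization its difference without irinotecan did not reach 2-fold (-0.97). TP53I3, a quinone oxidoreductase gene also known as PIG3, had levels of 7.62, 7.34 and 6.85.

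TP53I3 was thus 1.71-fold below parental LoVo with irinotecan. SPATA18, a mitochondrial quality control gene, had differences of 0.13 and -0.22, and STEAP3, a metalloreductase gene of iron uptake, had -0.08 and 0.05. Of the 4 genes, 3 were below parental LoVo on each LoVo-R8 array, with SPATA18 above it without and STEAP3 with irinotecan. Over all genes, 38.5% were below it without and 44.7% with irinotecan. The medians of the 4 genes were -0.18 and -0.50.

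The feedback genes were near parental levels without irinotecan and mostly below them with it. MDM2 had levels of 11.55, 11.77 and 10.92, so its difference from parental LoVo was 0.22 without and -0.63 with irinotecan. PPM1D, which encodes the phosphatase WIP1 that removes damage marks from p53 and the damage kinases, had 9.15, 9.15 and 8.69. MDM4, a p53 inhibitor gene related to MDM2, had 9.16, 9.52 and 9.22. MDM2 and PPM1D thus had their lowest level in the culture with the drug, and MDM4 did not.

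FBXO22, an F-box gene, had differences of -0.31 and -0.44, and RPS27L, a ribosomal protein paralog whose product binds MDM2, had -0.04 and -0.21. CCNG1, the cyclin G1 gene, had -0.04 on both arrays. RPS27L has a close paralog, RPS27, and its probe set may take signal from it. Of the 6 genes, 5 were below parental LoVo with irinotecan and 3 without it, beside 44.7% and 38.5% of all genes. The medians of the 6 genes were -0.33 with and -0.02 without irinotecan.

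Among the remaining members, GDF15, a secreted stress cytokine gene, had levels of 12.05, 12.93 and 12.23. It was 1.83-fold of parental LoVo without irinotecan and 1.13-fold with it. CD82, a tetraspanin gene, had differences of -0.11 and 0.08. TP53I11, a membrane protein gene also known as PIG11, had levels of 7.61, 7.47 and 6.90, the lowest again in LoVo-R8 with irinotecan.

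The arrays labelled as LoVo-R8 with and without irinotecan were then compared with each other, with directions that hold only if these labels are right. None of the 36 genes was 2-fold higher or lower with irinotecan than without it, where 0.527% and 0.114% of all genes were. At 1.5-fold, 7 of 36 genes (19.4%) were lower with irinotecan and 0 were higher, beside 1.08% and 2.87% of all genes. The median difference was -0.28, against 0.00 over all genes. With irinotecan 29 of 36 genes (80.6%) were below their level without it, 5 were above and 2 were equal, while 48.4% of all genes were below.

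Each role held 1 of the 7 lower genes. They were GADD45A (-0.91), MDM2 (-0.85), TIGAR (-0.78), TNFRSF10B (-0.74), GDF15 (-0.70), TP53INP1 (-0.64) and RRM2B (-0.60), given as log2 differences with minus without irinotecan. Counted from the lowest of 18417 genes, GADD45A ranked 36, MDM2 47 and TIGAR 71. Just outside the 1.5-fold limit were TP53I11 (-0.57) and PLK2 (-0.53). CDKN1A had -0.49 and TP53I3 -0.49.

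On the other side, TNFRSF10D had the highest difference of the 36 genes, 0.43, followed by SHISA5 (0.27), CD82 (0.19), STEAP3 (0.13) and POLH (0.11). CCNG1 and PIDD1 were equal on both arrays. Equal values were common, and 12.2% of all genes had values within 0.0005 of each other on these arrays.

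**Figure D4:**
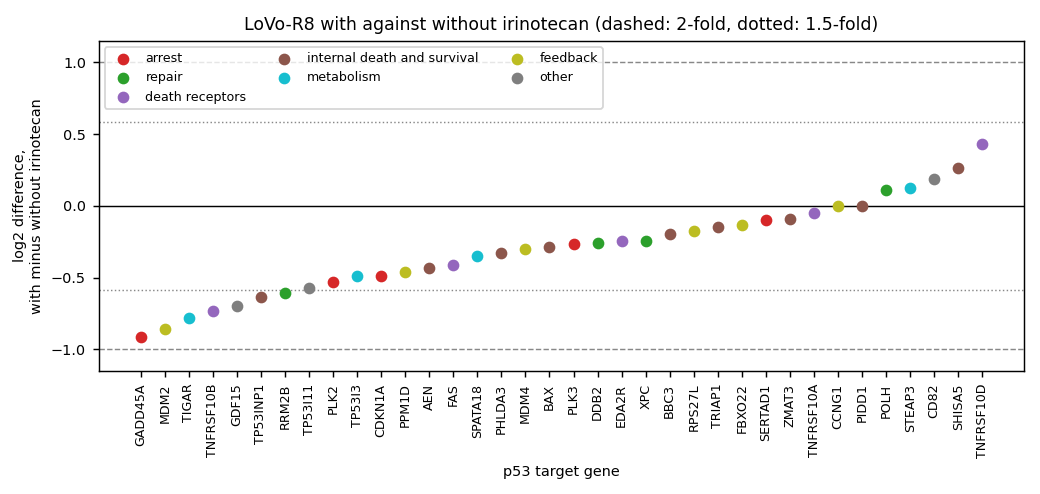
Log2 difference of LoVo-R8 with minus without irinotecan for the 36 measured p53 target genes, ordered by value and coloured by role, with dashed lines at 2-fold and dotted lines at 1.5-fold. GADD45A (-0.91) is at the low end, TNFRSF10D (0.43) at the high end, and 29 genes lie below 0.

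Across the 3 arrays, LoVo-R8 without irinotecan held the highest level of 18 of the 36 genes (50%), beside 32.3% of all genes. LoVo-R8 with irinotecan held the highest level of 4, POLH, SHISA5, STEAP3 and CD82, beside 22.3% of all genes, and the parental array that of 11, beside 30.8%. For 13 members (36.1%), LoVo-R8 with irinotecan lay between parental LoVo below and LoVo-R8 without irinotecan above, an order that 15.6% of all genes had. CDKN1A, GADD45A, PLK2, DDB2, RRM2B, FAS, TNFRSF10B, TP53INP1, ZMAT3, BAX, BBC3, MDM4 and GDF15 had this order. These counts restate the differences above in another form and add no replicate.

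Other p53-induced genes, not in the list of 39, included some that were higher in LoVo-R8 with the drug as well. Of 43 measured, 4 were at least 2-fold higher than parental LoVo without irinotecan and 1 was lower (9.30% and 2.33%, beside 1.64% and 2.78% of all genes). With irinotecan the numbers were 3 and 1 (6.98% and 2.33%, beside 2.25% and 2.3% of all genes). Their medians were 0.14 and 0.00. KITLG, the stem cell factor gene, had log2 differences of 1.16 and 1.70, CMBL, a hydrolase gene, 1.25 and 1.28, and ORAI3, a calcium channel gene, 1.09 and 0.91. TRIM22 had 1.03 and 0.81, and ENC1 0.07 and 1.05. GRHL3, an epithelial transcription factor gene, was the lower one, at -1.42 and -1.56. KITLG, CMBL and ENC1 were the genes at least 2-fold higher in LoVo-R8 with irinotecan. With minus without irinotecan, the 43 genes had a median of -0.14, and 26 of them (60.5%) were below 0, beside 48.4% of all genes.

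Among 23 measured members of the p53 family and upstream regulators, none reached 2-fold against parental LoVo on either array. CDKN2A, the locus of p16 and of the MDM2 inhibitor ARF, had differences of 0.51 and 0.97, and the checkpoint kinase gene CHEK2 had 0.29 and 0.72. USP7, whose product deubiquitinates p53 and MDM2, had -0.71 and -0.40, and TP53BP1, a double-strand break repair gene, -0.70 and -0.30. PPP1R13B, which encodes the p53 partner ASPP1, had -0.68 and -0.61, and SIRT1, a p53 deacetylase gene, 0.25 and -0.62. The list's medians were -0.17 on both arrays.

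Of 29 measured genes that p53 lowers through p21 and DREAM, 2 were at least 2-fold lower than parental LoVo without irinotecan (6.90%, beside 2.78% of all genes) and 1 with it (3.45%, beside 2.3%). On neither array was any of them 2-fold higher. CDC25A, the phosphatase gene of the G1/S transition, had differences of -2.05 and -1.08, and the mitotic cyclin gene CCNB1 -1.19 and -0.83. The replicative helicase genes MCM5 and MCM6 had -0.99 and -0.73 without irinotecan and -0.62 and -0.34 with it. RRM2, the S phase counterpart of RRM2B, had -0.89 and -0.34, and KIF23, a gene of cell division, -0.65 and -0.65. The list's medians were -0.30 and -0.11. With minus without irinotecan, 25 of the 29 genes (86.2%) were above 0, beside 39.4% of all genes, and their median was 0.20, while the p53 target genes had -0.28. Cell cycle distribution was not measured on these arrays.

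Genes induced by the stress factors ATF4 and CHOP also differed between the LoVo-R8 arrays. GDF15 and TNFRSF10B are known to respond to these factors as well as to p53, and so does SESN2, a p53-induced gene outside the list of 39 that had -1.22 with minus without irinotecan. SESN2 is counted in the ATF4 and CHOP list and also among the other p53-induced genes above. Of 18 genes in the ATF4 and CHOP list, 3 were at least 2-fold higher than parental LoVo without irinotecan (16.7%, beside 1.64% of all genes). With irinotecan 0 were higher and 3 were at least 2-fold lower (16.7%, beside 2.3% of all genes). With minus without irinotecan, 7 were at least 2-fold lower (38.9%, beside 0.114% of all genes) and 0 higher, and the median was -0.82. Of the 6 genes of this list farthest from parental LoVo, CHAC1 had -1.69, TRIB3 -1.56, SLC7A11 -1.41 and DDIT3, the CHOP gene, -1.37. NUPR1 had -1.16 and PPP1R15A -0.98, the latter just short of 2-fold. DDIT4, not among those 6, had -1.58. The part of these genes' regulators in the levels of GDF15 and TNFRSF10B was not tested.

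**Figure D5:**
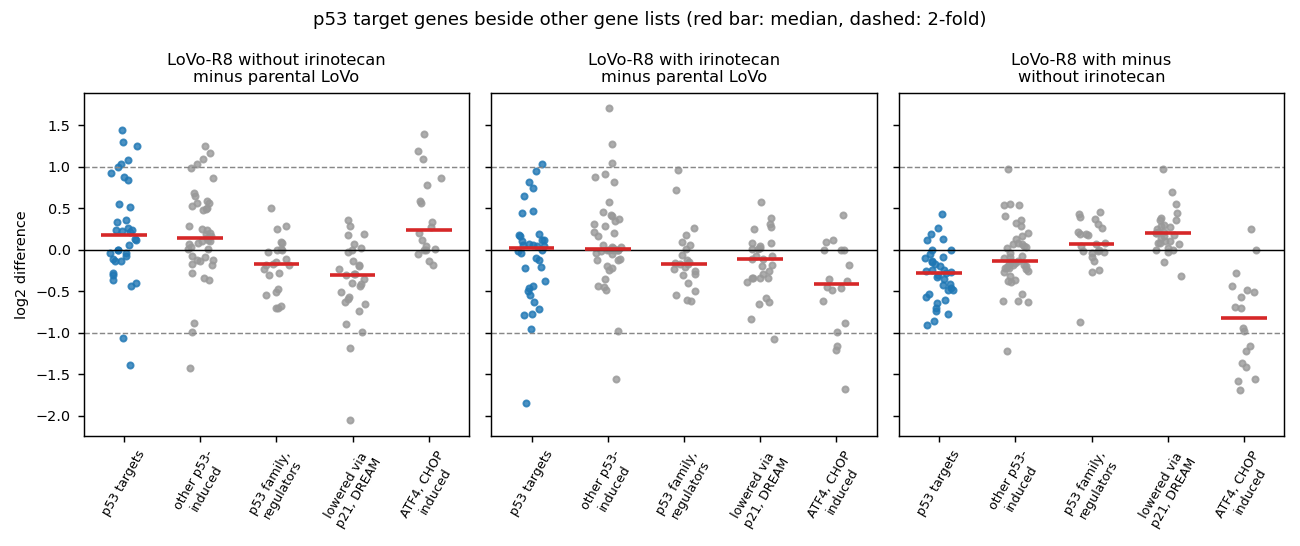
Log2 differences of each measured gene of 5 lists in the 3 comparisons, 1 point per gene, with a red bar at each median and dashed lines at 2-fold. Some lists overlap: SESN2 is in the other p53-induced and the ATF4 and CHOP lists. CHEK1 is in the regulator list and in that of genes lowered through p21 and DREAM. The p53 target genes (blue) have medians of 0.17, 0.02 and -0.28 from the left panel to the right, the genes lowered through p21 and DREAM -0.30, -0.11 and 0.20, and the ATF4 and CHOP list 0.24, -0.41 and -0.82.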

How the data were processed

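Affymetrix Human Gene 1.0 ST arrays were hybridised with RNA of 3 cultures, 1 array per condition. The authors deposited RMA values on a log2 scale for 33297 probe sets, with 0 missing. For this step the submitters' processing notes list Affymetrix Expression Console 1.1, and the study's methods R and Bioconductor. RMA quantile-normalizes the arrays, so a shift shared by most genes would not be seen.

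Samples were grouped by title. The 19460 probe sets naming 1 gene gave 18417 genes (the probe set with the highest mean). All 36 measured members matched RefSeq (GRCh38.p14) by Entrez identifier under the same symbol. Log2 levels were subtracted and counted at 2-fold, as in the study's methods, and at 1.5-fold, with no test. The study's p-value criterion and detection filter were not applied. The members and gene lists were chosen with earlier results of these data known. All measured members are named, and the 6 genes farthest from parental LoVo in each other list that is not one of cell type markers. SESN2, DDIT4 and the single cell type markers were named after their values were seen. The calculation was tested on simulated data. Alternatives were thresholds of 1.5-fold and 3-fold, median centring, loess (span 0.3), repeated quantile normalization, filters on dim genes and other choices of probe set. Python 3.11.15, numpy 2.4.6, pandas 2.3.3, statsmodels 0.14.6 and matplotlib 3.10.9 were used.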

Additional observations from a re-analysis of the deposited data

Results flagged for a closer look

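MDM2 lay on opposite sides of its parental level on the LoVo-R8 arrays, which were more than 1.5-fold apart. Its log2 difference from parental LoVo was 0.22 without irinotecan and -0.63 with it. The difference between them was not tested, since each condition has 1 array.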

How the results depend on the processing

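Of 753 single-gene differences recomputed under alternatives other than the threshold, 749 kept their side of 2-fold and 0 of the differences past 2-fold changed sign. Many of them could not change. Median centring subtracted 0, filters on dim genes only left genes out, and each member has 1 probe set to average. Only loess and repeated quantile normalization rescaled the values, and under them 107 and 105 differences kept their side. The exceptions were PLK2 without irinotecan (loess and repeated quantile normalization), TIGAR without irinotecan (-0.97) and CDKN1A with irinotecan (1.00), the last 2 under repeated quantile normalization. Without TIGAR, the count of members at least 2-fold lower without irinotecan was 1 in place of 2 there. With CDKN1A added, that of members higher with irinotecan was 2 in place of 1. Why this scaling moved the 2 genes was not tested. At 1.5-fold, 9 members were higher without irinotecan, 5 were higher and 6 lower with it, and 7 were lower with than without it. At 3-fold, 0 were higher or lower without irinotecan and 0 were higher with it, while TIGAR stayed lower with it. The medians ranged from 0.13 to 0.22 without irinotecan, from 0.00 to 0.04 with it and from -0.34 to -0.27 between the LoVo-R8 arrays. No paired analysis was possible because each group has 1 array. Signal near background limits EDA2R.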
